A study of Mus musculus with 25 samples.

Results

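Of the 98107 regions of open chromatin found in at least 1 of 4 sorted populations of mouse skin cells, 15150 regions (15.4%) carried a peak in all 4. These shared regions were chosen by the peak calls themselves: peak intervals of the 4 deposited lists that overlapped by 1 bp or more were merged, on chromosomes 1 to 19 and X, and a region was kept when each list gave it at least 1 peak. The widths, peak heights and numbers of lists given below are therefore a description of the selected regions and carry no test. Position, promoter sequence and RNA were not used in the choice. The number of regions was 12663 with peaks in 3 lists, 20197 with peaks in 2 and 50097 with a peak in 1.

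Open chromatin was measured by ATAC-seq, in which a transposase cuts accessible DNA and inserts sequencing adapters. The 4 populations came from female mice of a mixed CD1/B6 background. Hair follicle stem cells (HFSC) were sorted from back skin at postnatal day 50 as integrin alpha 6 high, CD34 positive and Sca1 negative, and epidermal stem cells (EpdSC) from the same source and age as integrin alpha 6 high, CD34 negative and Sca1 positive. Wound cells were integrin alpha 6 positive, Sca1 positive cells from full-thickness and partial-thickness wounds, and Tumor cells were GFP-positive cells, high in integrins alpha 6 and beta 1, from grafted squamous cell carcinomas induced by oncogenic HRas. Each population was 1 pooled library with no replicate, so no test between populations was possible. RNA came from 21 separate libraries of female B6 mice, called CL, BK and DS in the labels. In CL, HFSC, EpdSC, the wounded HFSC lineage and wounded EpdSC had 2 libraries per group. All were lineage negative and integrin alpha 6 high, and the wounded groups were sorted as YFP positive (HFSC lineage) and YFP negative (EpdSC) from Sox9CreER;R26-YFP mice, in which an inducible Cre driven by Sox9 marks cells. BK consisted of 2 HFSC, 2 EpdSC and 1 wounded EpdSC library. DS consisted of 6 GFP-positive grafted tumour libraries, with integrin alpha 6 high and low cells of HRas, of HRas TbrKO and of TbrKO tumours, beside an HFSC and an EpdSC library marked Tbr. The labels give postnatal day 60 for the skin RNA samples and no interval between wounding and sorting. A protocol note of the DS and BK entries mentions wound biopsies without naming libraries, so whether the BK libraries not labelled wounded came from such biopsies could not be settled.

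The header of each peak list gave 26825550 fragments for HFSC, 13963471 for EpdSC, 11140895 for Wound and 29579794 for Tumor. The lists held 55421, 25739, 56854 and 54181 peaks in that order. Peak heights are therefore given as the pileup at the summit, the number of fragments stacked there, per 1000000 fragments of the list (FPM). Total RNA counts ran from 14216472 to 36425082 per library, and RNA levels of single genes are given as counts per 1000000 counts of the library (CPM).

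Most promoters of widely used genes lie in CpG-rich DNA that is kept free of nucleosomes, so that general transcription factors and RNA polymerase can enter in many cell types. Enhancers, which lie between and within genes, tend to open in fewer cell types. Basal keratinocytes of the follicle and of the epidermis share adhesion genes, keratins and a set of epithelial transcription factors, and differ in lineage regulators such as Sox9 in the follicle and Klf5 in the epidermis.

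The promoters below show the range of sequence among the shared regions. Each is the run of 250 bases just before a RefSeq start site (build GRCm38.p6, which is mm10), read 5′ to 3′ on the strand of the gene. Capitals mark letters matched, on either strand, to the searched binding motifs of SP/KLF factors (GGGCGG), NF-Y (CCAAT), ETS factors (CCGGAAGT), CREB-type factors (TGACGTCA) or GATA factors (AGATAA). Nxt1, an mRNA export factor, had among the most equal peak heights of the shared regions when scaled by fragments. Osbp, an oxysterol-binding protein, had the highest shared peak at a start site by its lowest value. Krt5 encodes a basal keratin, Aurka a mitotic kinase, Maff a small Maf transcription factor and Rps6 a ribosomal protein. Syt1, a synaptotagmin of vesicle release, was highest in EpdSC, and Plscr1, a phospholipid scramblase, was highest in Tumor.
Nxt1, chr2:148672365-148672614, plus strand: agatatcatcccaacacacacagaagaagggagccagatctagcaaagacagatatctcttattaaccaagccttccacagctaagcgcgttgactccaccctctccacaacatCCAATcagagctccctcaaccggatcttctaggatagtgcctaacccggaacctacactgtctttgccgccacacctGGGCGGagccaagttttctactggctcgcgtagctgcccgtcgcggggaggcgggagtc
Osbp, chr19:11965594-11965843, plus strand: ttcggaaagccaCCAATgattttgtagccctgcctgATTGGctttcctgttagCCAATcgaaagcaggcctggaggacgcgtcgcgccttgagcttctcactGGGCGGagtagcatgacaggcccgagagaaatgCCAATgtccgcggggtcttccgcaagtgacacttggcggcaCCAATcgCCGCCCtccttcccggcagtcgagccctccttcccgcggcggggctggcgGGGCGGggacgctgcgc
Krt5, chr15:101712906-101713155, minus strand: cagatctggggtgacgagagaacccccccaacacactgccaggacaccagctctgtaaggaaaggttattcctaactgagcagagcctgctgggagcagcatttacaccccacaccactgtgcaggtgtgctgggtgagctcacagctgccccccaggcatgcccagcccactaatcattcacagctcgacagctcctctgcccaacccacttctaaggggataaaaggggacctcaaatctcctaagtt
Aurka, chr2:172370571-172370820, minus strand: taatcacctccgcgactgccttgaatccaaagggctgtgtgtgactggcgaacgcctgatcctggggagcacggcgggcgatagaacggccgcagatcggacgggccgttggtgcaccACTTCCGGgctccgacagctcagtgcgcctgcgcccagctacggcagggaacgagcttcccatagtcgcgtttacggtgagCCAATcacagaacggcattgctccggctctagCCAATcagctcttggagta
Maff, chr15:79347270-79347519, plus strand: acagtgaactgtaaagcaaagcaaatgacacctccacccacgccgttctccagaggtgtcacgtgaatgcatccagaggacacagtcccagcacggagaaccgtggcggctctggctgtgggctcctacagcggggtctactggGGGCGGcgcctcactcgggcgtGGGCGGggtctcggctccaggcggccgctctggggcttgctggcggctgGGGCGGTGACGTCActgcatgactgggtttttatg
Rps6, chr4:86857368-86857617, minus strand: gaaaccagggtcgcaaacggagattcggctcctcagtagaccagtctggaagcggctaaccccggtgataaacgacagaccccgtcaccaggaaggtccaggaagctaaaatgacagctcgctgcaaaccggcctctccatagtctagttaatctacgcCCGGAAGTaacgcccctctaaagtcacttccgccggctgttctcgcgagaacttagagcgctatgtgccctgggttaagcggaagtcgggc
Syt1, chr10:109010976-109011225, minus strand: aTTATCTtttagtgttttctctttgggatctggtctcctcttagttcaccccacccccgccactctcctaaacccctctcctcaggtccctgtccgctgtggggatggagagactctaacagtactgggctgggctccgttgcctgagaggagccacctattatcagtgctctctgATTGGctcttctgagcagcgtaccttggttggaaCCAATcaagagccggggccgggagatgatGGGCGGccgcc
Plscr1, chr9:92249944-92250193, plus strand: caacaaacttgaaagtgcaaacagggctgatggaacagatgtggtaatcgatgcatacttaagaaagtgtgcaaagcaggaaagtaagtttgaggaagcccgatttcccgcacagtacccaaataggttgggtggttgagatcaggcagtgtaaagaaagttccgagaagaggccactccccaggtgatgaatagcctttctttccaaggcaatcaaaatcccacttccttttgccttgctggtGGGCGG

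In Nxt1, the GGGCGG lay 59 to 54 bases before the start and a CCAAT 136 to 132 bases before it. Osbp held 3 SP/KLF matches and 5 NF-Y matches. Aurka had a CCAAT at 51 to 47 and another at 19 to 15 bases before the start, with an ETS match at 132 to 125. Maff had a TGACGTCA 29 to 22 bases before the start, and Rps6 an ETS match at 91 to 84. No searched motif matched the 250 bases before the Krt5 start. A match describes the letters and is not a measured binding site.

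The shared regions were wide and high. Their median width was 1130 bp, with 5% narrower than 580 bp and 5% wider than 2080 bp, against medians of 810, 589 and 366 bp for regions with peaks in 3, 2 and 1 lists. They made up 27.9% of all bases under peaks, 18.3 of 65.5 Mb. In 90.4% of them each list gave exactly 1 peak. The highest peaks of the 4 lists had at least 1 base in common in 96.8% of the regions, with a median of 475 shared bases, and the 4 summits lay within a median span of 115 bp. All 4 summits lay within 250 bp of each other in 74.1% of the regions. In 483 regions the highest peaks had no base in common and were joined by chaining through a neighbour.

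Peak heights rose with the number of populations that shared a region, and the rule had used the same peak calls. In HFSC the median pileup was 2.72 FPM in the shared regions, 1.3 in regions of 3 lists, 1.01 in regions of 2 and 0.857 in regions found in 1. In EpdSC the values were 1.79, 1.29, 1.22 and 1 FPM, in Wound 3.77, 2.33, 1.8 and 1.26, and in Tumor 1.69, 1.01, 1.01 and 0.778. Every population thus had its highest median in the shared regions. They took 27.8% of the HFSC peaks, 60.2% of the EpdSC peaks, 27.6% of the Wound peaks and 29.6% of the Tumor peaks. Of the 1000 strongest peaks by q-value, 84.2% in HFSC, 92.6% in EpdSC, 89.4% in Wound and 68.5% in Tumor lay in a shared region.

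**Figure D1:**
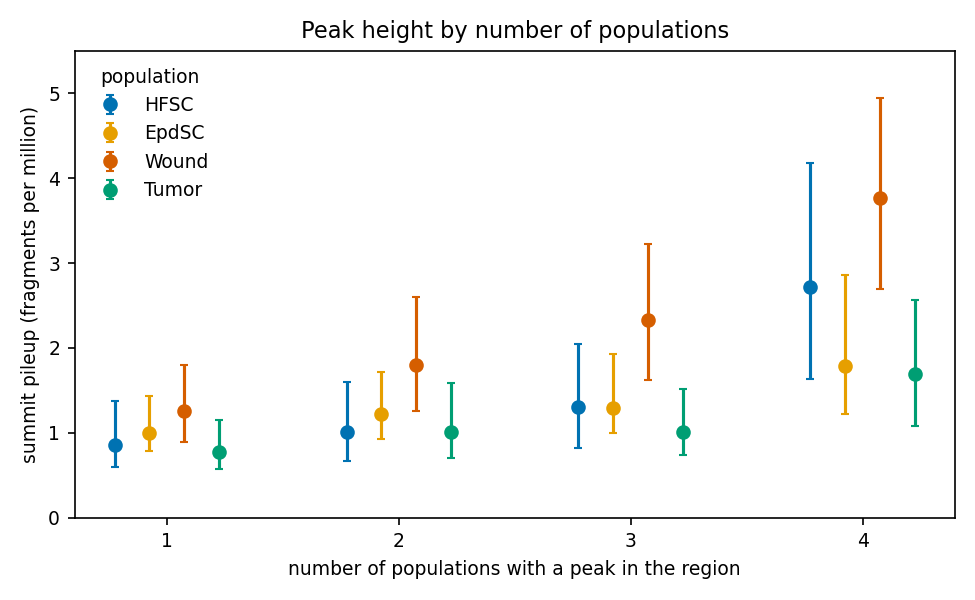
Summit pileup in FPM (points, median; bars, interquartile range) for regions grouped by the number of populations with a peak, in HFSC, EpdSC, Wound and Tumor. Medians were highest in regions shared by all 4 populations, at 2.72, 1.79, 3.77 and 1.69 FPM.

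Among the 12663 regions of 3 lists, EpdSC was the list without a peak in 7673 (60.6%), Tumor in 2860, HFSC in 1642 and Wound in 488. Just outside the rule, the 7673 regions without an EpdSC peak had median pileups of 1.3 FPM in HFSC, 2.33 in Wound and 1.01 in Tumor. Just inside it, 128 shared regions had a weakest peak with a -log10 q below 2, where the authors' threshold corresponds to a q of 0.05. These had medians of 1.06 FPM in HFSC, 0.788 in EpdSC, 2.42 in Wound and 0.879 in Tumor, and EpdSC was the weakest list in 61 of them.

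Peak heights within a shared region differed by a median factor of 2.81 between the highest and the lowest population, and 19.8% of the regions stayed within a factor of 2. Wound was the highest population in 64.5% of regions, HFSC in 25.1%, EpdSC in 7.44% and Tumor in 2.92%. This order depended on the scaling. When the 4 lists were brought to equal medians over the shared regions, the median factor fell to 2.04, Wound was the highest in 16.9% and EpdSC in 33.2%. By the fold enrichment of the authors' peak caller, HFSC was the highest in 38.9% and Wound in 28.8%. Across the shared regions, Spearman correlations of pileup ran from 0.52 between HFSC and Tumor to 0.65 between Wound and Tumor. These regions share their libraries and selection, and no p-value is attached to the correlations.

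Shared regions sat at gene starts far more often than other open regions did. The median of the 4 summits lay within 1 kb of a RefSeq start site in 6823 of 15150 shared regions (45%, 95% exact binomial interval 44.2 to 45.8%, counting error only). The share was 18.1% for regions of 3 lists, 7.09% for 2 and 4.25% for 1, and the intervals of the 4 classes did not overlap. A further 1212 shared regions (8%) lay within 1 kb of an end of a gene whose start site was not in the table used. Of the rest, 27.3% lay inside genes and 19.7% outside them, against 53.7% and 40.9% for regions of 1 list. At the 6823 start-site regions the median summit lay 23 bp upstream of the start, and 82.9% lay within 250 bp of it. Start sites on both strands lay within 1 kb in 19.6% of these regions, against 5.82% of the start-site regions seen in 1 list.

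**Figure D2:**
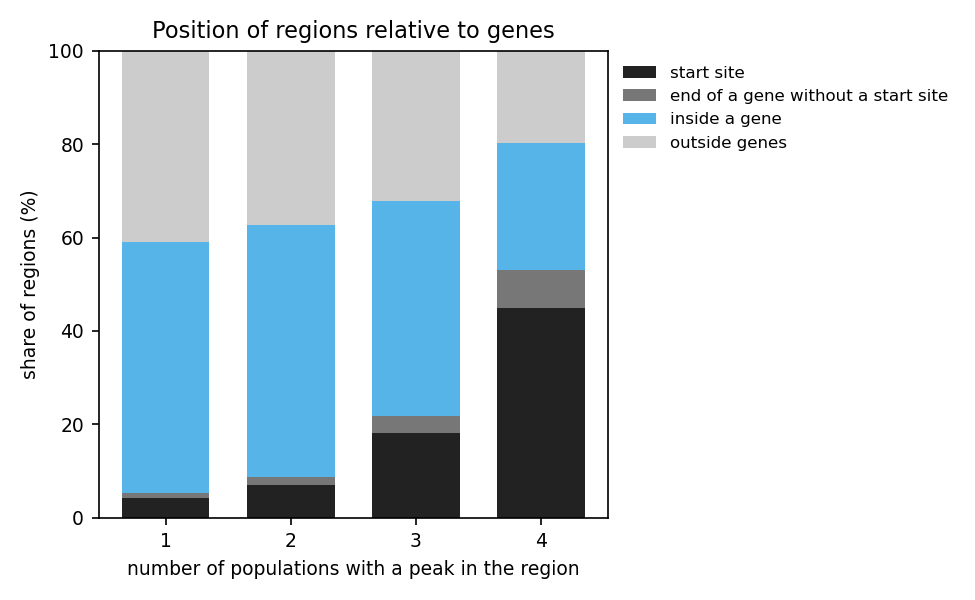
Share of regions (%) at a start site (summit within 1 kb), at an end of a gene without a given start site, inside a gene or outside genes, by number of populations with a peak. The start-site share was 4.25%, 7.09%, 18.1% and 45% from 1 to 4 populations.

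Start-site regions were also more even than the other shared regions. The median factor between the highest and lowest population was 2.53 at start sites, 3.25 inside genes and 3.27 outside genes, and at equal medians 1.83, 2.38 and 2.5. Their pileup was higher too: the medians at start sites were 3.17 FPM in HFSC, 1.93 in EpdSC, 3.95 in Wound and 1.83 in Tumor, against 2.09, 1.72, 3.59 and 1.45 outside genes. In Wound and EpdSC the gap between these classes was smaller than in HFSC.

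The sequence of the promoters differed between the classes. Only promoters could be examined, since the genome sequence of other regions was not used here. Each was classed by the regions whose median summit lay within 1 kb of its start. Those with none are called windows without a peak. In 300-base windows, 250 before and 50 after the start, the median GC content was 62.3% in the 8043 windows of protein-coding genes with a shared region and 48.7% in the 8594 windows with no peak. A ratio of observed to expected CpG above 0.6, a usual mark of CpG islands, was found in 80.9% of the former, 69.8% with peaks in 3 lists, 52% with 2, 37% with 1 and 12.7% with none. SP/KLF letters occurred in 70% of the shared windows, 46.6% of all 21020 windows and 19.1% of those without a peak. The ETS motif occurred in 9.7%, 5.2% and 0.943% in that order, the NRF1 motif (GCGCATGCG) in 4.2%, 2.36% and 0.57%, the CREB motif in 3.58%, 2.26% and 0.803%, and the YY1 motif (AAGATGGCG) in 3.12%, 1.84% and 0.291%. These letters are rich in G, C or CpG, as the shared promoters themselves were.

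Letters of several inducible or lineage factors ran the other way. The AP-1 motif (TGANTCA) occurred in 4.21% of the shared windows, 7.04% of all windows and 9.23% of those without a peak. GATA letters occurred in 5.21%, 9.69% and 15.2%, RUNX letters (TGTGGTT) in 2.87%, 4.73% and 6.66%, SOX letters (ACAATGG) in 1.74%, 2.94% and 4.55%, and TEAD letters (GGAATG) in 11%, 13.5% and 15.8%. None of these letters holds a CpG, and the shared windows had a higher median GC content, 62.3% against 48.7% without a peak. The part of base composition in these shares was not tested. The GRHL motif (AACCGGTT) was rare, in 0.323% of shared windows and 0.181% of all, and the CTCF consensus was found in 0.572% and 0.447%. The p63 consensus matched none of the 21020 windows. All motifs were searched on both strands, and matches of different motifs may overlap.

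CCAAT occurred in 40.9% of the shared windows, 38.5% of all, 33.2% of those with a peak in 1 list and 38.9% of those without a peak. In the 100 bases before the start the shares were 25.6% of the shared, 20.9% of all and 18.5% of those without a peak. The shared promoters that held it in the longer window had higher peaks. Their median pileup was 3.77 FPM in HFSC, 2.22 in EpdSC, 4.49 in Wound and 2.13 in Tumor, against 2.98, 1.86, 3.77 and 1.72 for the 4753 shared promoters without it. The difference had the same direction in all 4 populations. The median factor between populations at equal medians was 1.83 with CCAAT and 1.79 without, so the 2 classes were about as even. For SP/KLF letters the corresponding medians in HFSC were 3.32 with and 3.21 without.

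The highest shared regions were mostly not at ordinary genes. By the lowest of their 4 values, the top region lay at chr1:24612226-24613232, outside annotated genes, with 354 FPM in HFSC, 482 in EpdSC, 233 in Wound and 313 in Tumor. The next were chr2:98666243-98667311, at 113 to 158 FPM, and chr2:98662240-98663868, at 42.4 to 71.4. The regions at chr17:39843116-39846750 and chr17:39847345-39848717 reached lowest values of 38.6 and 32.4, and the latter overlapped the 18S ribosomal RNA pseudogene Rn18s-rs5. A further 3, at chr9:35305217-35305589, chr3:5860385-5860821 and chr8:19784440-19785357, had lowest values of 27.2, 14.3 and 12.3. These 8 regions stood above every start site, and whether reads from repeated copies stack there was not tested. The highest at start sites were Osbp, at 13.9 FPM in HFSC, 17.3 in EpdSC, 10.1 in Wound and 13 in Tumor, and Mon1b, a vesicle traffic protein, at 14.7, 15.7, 10.1 and 12.7.

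The most even regions were those with the smallest factor between populations among regions above the median lowest value. Nxt1 had 7.46 FPM in HFSC, 7.52 in EpdSC, 7.81 in Wound and 7.51 in Tumor. Clcn3, a chloride and proton exchanger, had 7.38, 7.23, 7.09 and 7.07, and Tom1, an endosomal sorting protein, had 6.97, 6.66, 6.64 and 6.73. Start sites of Kif20b, a mitotic kinesin, Uprt and Tab3, an adaptor of the TAK1 kinase, also ranked among the 10, as did a region inside Ints6l, a subunit of the Integrator complex. Another lay 33510 bp from the Fgfbp1 start and another inside Rarb, a retinoic acid receptor. At equal medians the factors of these named regions were between 2.1 and 2.26, above the median of 2.04 over the shared regions. They had been chosen on the scaling by fragments, and their evenness did not hold at equal medians. By fold enrichment, a further scale, some were also even, as Kif20b with 11.1 in HFSC, 10.5 in EpdSC, 11.6 in Wound and 10.1 in Tumor.

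Some shared regions were nonetheless strongly tilted to 1 population by the highest peak of each list, which need not lie at the same place. The 4 summits spanned 470 to 1460 bp in the 5 HFSC-tilted regions, against a median of 115 bp over the shared regions. They spanned 650 bp at Syt1, 759 bp in Rbms1 and 328 bp at Gjb2, and 212 bp at Plscr1, 146 bp in Bfsp2 and 97 bp in Cpt2. The most HFSC-tilted region, chr5:4485910-4487328, outside genes, had 8.8 FPM in HFSC, 1.36 in EpdSC, 1.08 in Wound and 0.473 in Tumor. All 5 regions of the HFSC set lay outside genes, with HFSC at 5.68 to 6.47 times the next population. Syt1 was a start-site region tilted to EpdSC, with 0.708 in HFSC, 6.3 in EpdSC, 1.44 in Wound and 1.32 in Tumor, and Fibin, a secreted protein gene, had 0.671, 2.58, 0.628 and 0.473. Regions inside Zfhx3, a zinc finger homeobox factor, and Trpm3, a cation channel, stood at 4.08 and 9.81 in EpdSC.

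Regions tilted to Wound lay inside Rbms1, Ninj2, Ano1 and Cpt2, and at Gjb2. The region at Gjb2, the gap junction protein connexin 26, had 0.857 FPM in HFSC, 0.716 in EpdSC, 4.04 in Wound and 0.609 in Tumor; the same window holds the start of the noncoding gene Gm32912. Rbms1, an RNA-binding protein, had 0.671, 0.931, 5.3 and 0.845. Tilted to Tumor were Plscr1, with 0.634, 1.29, 1.26 and 4.9, and a region inside Bfsp2, with 0.783, 1.07, 0.898 and 3.31. Regions were 127 in number, 0.838% of all shared, in which the factor between populations was over 10.

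The widest shared regions were chr9:3029038-3038043 (9006 bp) and chr9:3021553-3027812 (6260 bp), both outside genes at the start of the chromosome, followed by chr9:3012248-3017123. Next came the start sites of Tgif1, a TGF-beta-induced homeobox repressor, with 4484 bp, and Snx18, a sorting nexin, with 3959 bp. By nearest start site within 100 kb, Sgms1, a sphingomyelin synthase, had the most shared regions, 10 of the 30 open regions near it. Ccnl1, Sod1 and the noncoding Gm46827 had 8 each, and Crybg1, Nckap5, Spred2, Vav3 and Vgll4, a cofactor of TEAD factors, had 7 each. Long genes held many: 13 lay within Auts2, which spans 1110 kb, and 12 within Pde4d, which spans 1300 kb.

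Of 17274 protein-coding genes with a given start site, 6938 (40.2%) had a shared region there, against 11.9% of 9520 long noncoding RNA genes. A region counted when its median summit lay within 1 kb of the start, and genes with none are called genes without a peak. For genes without a given start site the region was sought within 1 kb of either end of the gene; over all 21631 protein-coding genes 38.9% had a shared region by these rules. The gene lists below are set against that share, as a description. The lists were assembled with earlier results of these data known.

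Basal epithelial genes were open in all 4 populations in 10 of 13 cases. Krt5 had 4.51 FPM in HFSC, 1.29 in EpdSC, 3.05 in Wound and 1.35 in Tumor. Itga6 and Itgb4, the hemidesmosomal integrin pair, had 2.83, 1.07, 2.06 and 0.811, and 2.87, 0.859, 2.06 and 1.12. Itgb1, the beta 1 integrin, was more even, at 4.92, 3.15, 4.58 and 3.65, as were Lamb3, a laminin chain of the basement membrane, at 4.18, 3.44, 4.76 and 2.98, and Col17a1, the hemidesmosomal collagen, at 2.01, 1.07, 1.8 and 1.45. Itga3 lacked only an EpdSC peak, and Krt14 had a peak within 1 kb in HFSC alone. Trp63, the gene of p63, was examined at both gene ends and had no peak within 1 kb of either in any list.

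Epithelial transcription factors had a shared region in 11 of 22 cases. Klf5 was the highest, at 10.7 FPM in HFSC, 6.88 in EpdSC, 8.53 in Wound and 4.77 in Tumor. Grhl2, a regulator of epithelial junction genes, had 3.73, 2.51, 3.95 and 1.96, and Runx1 5.48, 3.37, 6.37 and 1.79. Ehf, an epithelial ETS factor, and Zfp750, a regulator of terminal differentiation, were tilted to Wound at 3.59 and 3.86, with 0.708 and 0.634 in HFSC. A further 5 factors, among them Gata3 and Grhl3, lacked 1 list. Another 3, Trp63 among them, had no peak in any list by the 1 kb rule.

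Genes named for 1 lineage differed by list. Of 18 HFSC identity genes 9 had a shared region (50%), and of 10 EpdSC identity genes 1 had (10%), against 38.9% of all protein-coding genes. Sox9, the follicle lineage factor, had 2.16 FPM in HFSC, 1.36 in EpdSC, 4.22 in Wound and 2.06 in Tumor. Tcf7l1, a Wnt-responsive repressor, had 3.47, 0.859, 2.69 and 2.43, Krt15, a bulge keratin, 2.83, 0.931, 1.44 and 0.541, and Wif1, a Wnt inhibitor, 2.05, 1.43, 1.8 and 0.845. The 1 EpdSC identity gene was Klf5, and 5 others had peaks in 3 lists. Among these, Gata3 and Grhl3 lacked only a peak in EpdSC, the shortest list. Of 12 wound keratin and alarm genes, Krt17 and Stfa3, a stefin protease inhibitor, had one, and of 13 epidermal differentiation genes none had.

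General cell functions were better represented. A shared region was found at 58 of 83 ribosomal protein genes (69.9%), 12 of 20 housekeeping genes, 13 of 20 cell cycle genes and 8 of 11 genes of chromatin looping and insulation. Ctcf, the insulator protein, had 2.09 FPM in HFSC, 0.859 in EpdSC, 2.78 in Wound and 1.66 in Tumor. Smc1a, a cohesin subunit, was more even, at 2.53, 2.08, 3.05 and 2.03. Hprt, a purine salvage enzyme, was the most even of the housekeeping genes, at 2.27, 1.86, 2.15 and 1.79, while Polr2a, the large subunit of RNA polymerase II, ranged from 0.573 in EpdSC to 3.24 in HFSC. Mcm5, part of the replicative helicase, had 6.97, 5.23, 5.83 and 4.43, and Aurka 5.55, 3.44, 5.48 and 4.67. Gapdh lacked only an EpdSC peak. Of 10 AP-1 genes 5 had a shared region, with Jun at 7.34, 5.8, 7.27 and 2.37 and Maff at 3.95, 0.716, 2.69 and 1.62.

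Markers of cell types that were not sorted were rarely open in all 4. Of 54 markers of melanocytes, fibroblasts, immune cells, endothelium, muscle, neurons, liver and red cells, 3 had a shared region (5.56%) and 43 had no peak in any list. The 3 were Mitf, the melanocyte transcription factor, at 3.39 FPM in HFSC, 4.94 in EpdSC, 5.12 in Wound and 3.08 in Tumor, Pmel, a melanosome protein, and Syt1. Mitf RNA was also present in the sorted libraries, at 89.3 and 49.6 CPM in CL HFSC, whereas Tyr, the melanin enzyme, stood at 0.0888 and 0.885. Other melanocyte markers were also higher in CL HFSC than in EpdSC by edgeR's test. Dct had a log2 fold change of 3.31 (adjusted p = 0.0117) and Tyrp1 of 6.98 (adjusted p = 0.036), while Mlana, Pmel and Tyr did not pass. Whether the Mitf RNA came from melanocytes was not tested.

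**Figure D3:**
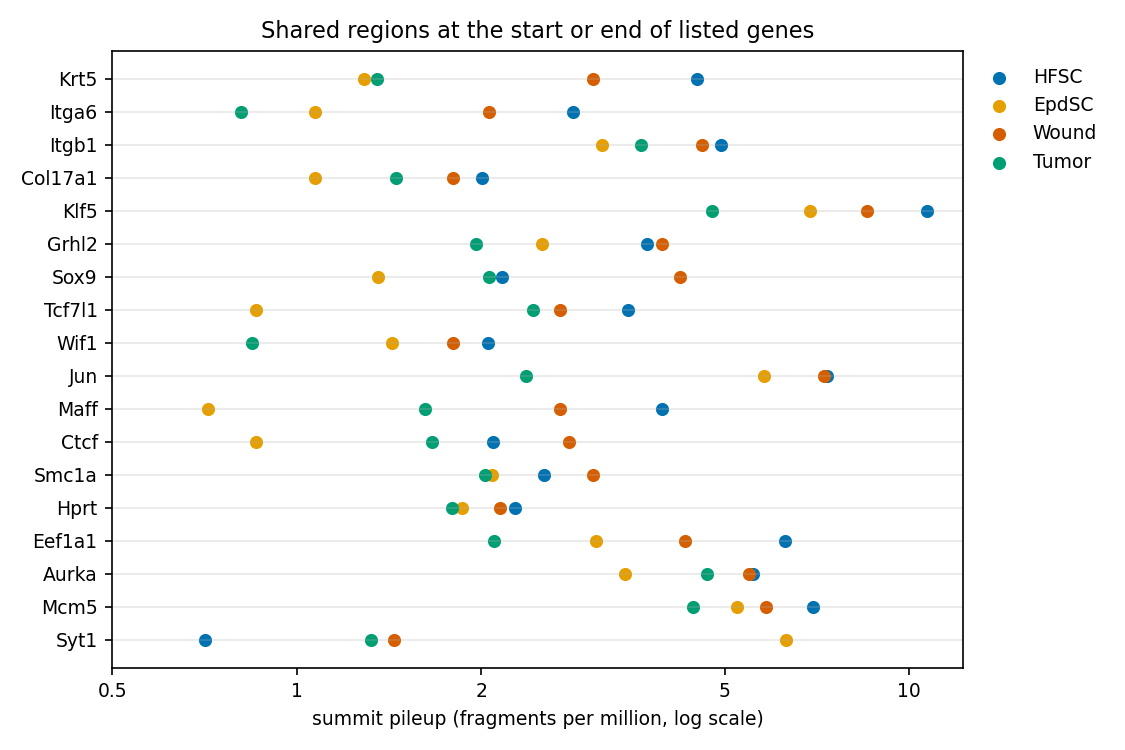
Summit pileup (FPM, log scale) in HFSC, EpdSC, Wound and Tumor for shared regions at 18 listed genes. Hprt spans 1.79 to 2.27 FPM, whereas Syt1 spans 0.708 to 6.3.

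Genes with a shared region at the start site were nearly always transcribed. Among protein-coding genes in the count table with such a region, 6230 of 6838 (91.1%) had at least 10 reads in every one of the 21 libraries. The share was 76.4% for genes with peaks in 3 lists, 46.4% for 2, 22% for 1 and 7.39% for none. Reads are not scaled to gene length here, so the shares concern detection and not level. Only 10 of the 6838 genes (0.146%) were listed at 0 in all 21 libraries, against 1779 of 5997 genes with no peak (29.7%). The 10 genes, named after their values were seen, were 4931408C20Rik, Amd1, Eif3j1, Gm20604, Lrch4, Ndufs5, Rbm14-rbm4, Sco2, Tmsb15l and Xntrpc. Their start-site regions had up to 8.2 FPM in HFSC, in Lrch4. Ndufs5 is a subunit of respiratory complex I that most cells use, so a listing at 0 need not mean a silent gene.

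In the other direction, 443 genes with no region summit within 1 kb of the start had 10 or more reads in every library. A region that reached the start with its summit farther away was not counted. The 10 with the highest median level, named after their values were seen, included the keratin gene Krt10, the water channel Aqp3 and the AP-1 genes Junb and Fosb. Junb ran from 164 to 3190 CPM. Of these 10, App, Capns1, Clic1, Junb and Tpm4 had a shared region with its summit within 2 kb of the start. Aqp3, Krt10, Krt77 and Ptprf had no region summit there.

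The RNA of HFSC was compared with that of EpdSC by edgeR's quasi-likelihood test with Benjamini-Hochberg adjustment over all genes tested. In CL, 285 genes with a shared start-site region were higher in HFSC and 228 lower, of 6902 tested (4.13% and 3.3%). Over all 14831 genes tested, 10.8% passed, 7.19% higher and 3.63% lower. The genes with a shared region thus passed less often as a whole, at 7.43%, and the gap lay on the side of higher genes. Genes with a peak in only 1 list passed in 24.7% of cases, and their median absolute log2 fold change was 1.25 against 0.27. Read numbers moved with the classes: the median tested gene had a mean of 897 reads with a shared region and 68.8 with a peak in 1 list. Their part in the difference was not tested.

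In BK, 315 genes with a shared start-site region were higher in HFSC and 436 lower, of 6927 tested (4.55% and 6.29%). Over all 14663 genes tested, 14.4% passed, 7.91% higher and 6.47% lower. The share of 10.8% with a shared region was again below that with a peak in 1 list, 30.5%. Of the genes higher in HFSC in CL, 62.1% were also called higher in BK, and these 177 genes were 56.2% of the BK calls. Of the genes lower in CL 54.8% were called lower in BK, and these 125 genes were 28.7% of the BK calls. Counts in both sets depended on single libraries. In CL, 167 were higher and 73 lower without HFSC replicate A, 189 and 156 without HFSC replicate B, 90 and 48 without EpdSC replicate A, and 124 and 63 without EpdSC replicate B. In BK they rose to 1315 higher and 1850 lower without EpdSC replicate 1, to 1104 and 1194 without EpdSC replicate 2, and fell to 180 and 200 without HFSC replicate 1 and to 192 and 195 without HFSC replicate 2.

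Some markers of other cells moved with the same contrast. Of the fibroblast markers, 3 of 8 were higher in HFSC in CL and 4 of 6 tested in BK. Over all genes tested, 7.19% and 7.91% were higher. Dcn and Lum went the other way in CL without passing (log2 fold changes -2.2 and -5.09). Of 8 immune markers tested, 0 passed in either set, and of 5 endothelial markers tested 0 passed in CL. The 8 fibroblast markers summed to 3540 and 2200 CPM in CL HFSC, with Lum at 0 in both and Postn at 3500 and 2160, against 272 and 561 in EpdSC. In BK the sums were 5880 and 4770 against 203 and 152. The 7 melanocyte markers summed to 95.3 and 60.4 in CL HFSC, mostly Mitf, against 16.4 and 22 in EpdSC, where Tyr and Tyrp1 were at 0. Their BK sums were 180 and 103 in HFSC against 8.73 and 20.5 in EpdSC. Dct, Mitf and Tyrp1 passed as higher in CL HFSC, and Dct, Mitf, Sox10 and Tyr in BK HFSC, with 0 lower in either set. The part of these markers in the results was not tested.

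Wif1, the Wnt inhibitor, had 22.4 and 33.9 CPM in the CL HFSC libraries and 0.0 and 0.0625 in EpdSC (log2 fold change 9.89, SE 0.69, adjusted p = 0.000312). Its start-site pileup differed far less, 2.05 FPM in HFSC and 1.43 in EpdSC. Sema3e, a secreted guidance factor, had 177 and 129 CPM against 2.07 and 2.5 (adjusted p = 0.00546), with a pileup of 7.46 against 3.22. Lef1, Sorbs2, Bmp6, Prkd1, Fam26e, Hist2h2bb, Arhgap28 and Gm16897 completed the 10 largest rises. Lef1, a Wnt effector, was listed at 0 in both EpdSC libraries and at 1.61 and 2.97 in HFSC, although its start-site pileup was 1.53 in HFSC and 1.72 in EpdSC.

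Among genes lower in HFSC, Igfbp3, an insulin-like growth factor binding protein, had 189 and 181 CPM in the CL HFSC libraries and 2190 and 1910 in EpdSC (log2 fold change -3.47, SE 0.21, adjusted p = 0.000251). Its pileup was 1.79 FPM in HFSC and 2.86 in EpdSC. Il1r2, the decoy receptor of interleukin 1, had 7.43 and 19.8 against 346 and 350, with pileups of 1.45 and 1.15. Slc4a8, a bicarbonate transporter, had 4.21 and 6.27 against 113 and 126. Pls1, Dio2, Gna14, Wipf3, Sema3d, Lrrc8b and Gm16894 were the others, and Gm16894 shares the region of Il1r2. In BK, Wif1 and Sorbs2 were again among the 10 largest rises, beside Ppp1r3c, Enox1, Adra2a, Epdr1, Klhl32, Gm10007, 1700019D03Rik and C030016D13Rik, and Syt1, Mmp28, Phldb2, Lrrc8b, Atp1b1, Cit, Bdkrb2, Ifi202b, Slc24a2 and Gm16894 were the 10 largest falls. Syt1 RNA stood at 0.0276 and 0.0577 in BK HFSC and at 0.877 and 1.39 in BK EpdSC (edgeR, adjusted p = 0.0185), the same direction as its pileup. In CL, Syt1 did not pass edgeR's test (log2 fold change -0.9, adjusted p = 0.213).

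Across the 6902 tested genes of CL, the RNA fold change and the log2 ratio of HFSC to EpdSC pileup had a Spearman correlation of -0.01. At equal medians the pileup ratio had a median of -0.05 for genes called higher in HFSC, 0.02 for genes not called and -0.12 for genes called lower. A difference over 2-fold in pileup was found in 15.8%, 9.64% and 20.6% of these classes. In BK the medians were 0.05, 0.02 and -0.18. At these start sites the ratio of peak heights moved little with the RNA in either set, and each population had a single ATAC library.

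Of the HFSC identity genes with a shared region, 7 of 9 were higher in HFSC in CL and 9 of 9 in BK. Their median log2 fold changes were 2.84 and 3.76, against medians over all genes tested of -0.02 and -0.03. Over all genes tested, 7.19% were higher in CL and 7.91% in BK. Of the 9 HFSC identity genes without a shared region, 7 were higher in each set, with medians of 5.28 and 6.54. Sox9 rose by 2.84 in CL (SE 0.27, adjusted p = 0.000764) and Foxc1, a forkhead factor, by 3.86 (adjusted p = 0.000544). Krt15 did not pass in CL (log2 fold change -0.21, adjusted p = 0.721). The single EpdSC identity gene with a shared region, Klf5, was lower in HFSC in CL (log2 fold change -1.61, adjusted p = 0.02) and in BK (-3.12, adjusted p = 0.0068). Of the 9 EpdSC identity genes without a shared region, 4 were lower and 2 higher in HFSC in CL, and 3 lower and 2 higher in BK. The higher genes were Dlx3 and Irx4 in both sets, against the name of their list. The lists were chosen for these lineages, so their direction is not independent evidence. Of the 13 cell cycle genes with a shared region, 11 were lower in HFSC in BK, with a median of -3.02. In CL 1 was higher and 0 lower, with a median of 0.25. Of the 7 without a shared region, 6 were lower in BK and 0 passed in CL, with medians of -3.12 and 0.13. Over all genes tested, 6.47% were lower in BK. The difference between CL and BK was not tested. Of the 58 ribosomal protein genes with a shared region, 0 passed edgeR's test in CL or in BK, with medians of -0.17 and 0.18. Of those without one, 0 of 21 tested passed in CL and 0 of 20 in BK, with medians of -0.25 and 0.04.

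**Figure D4:**
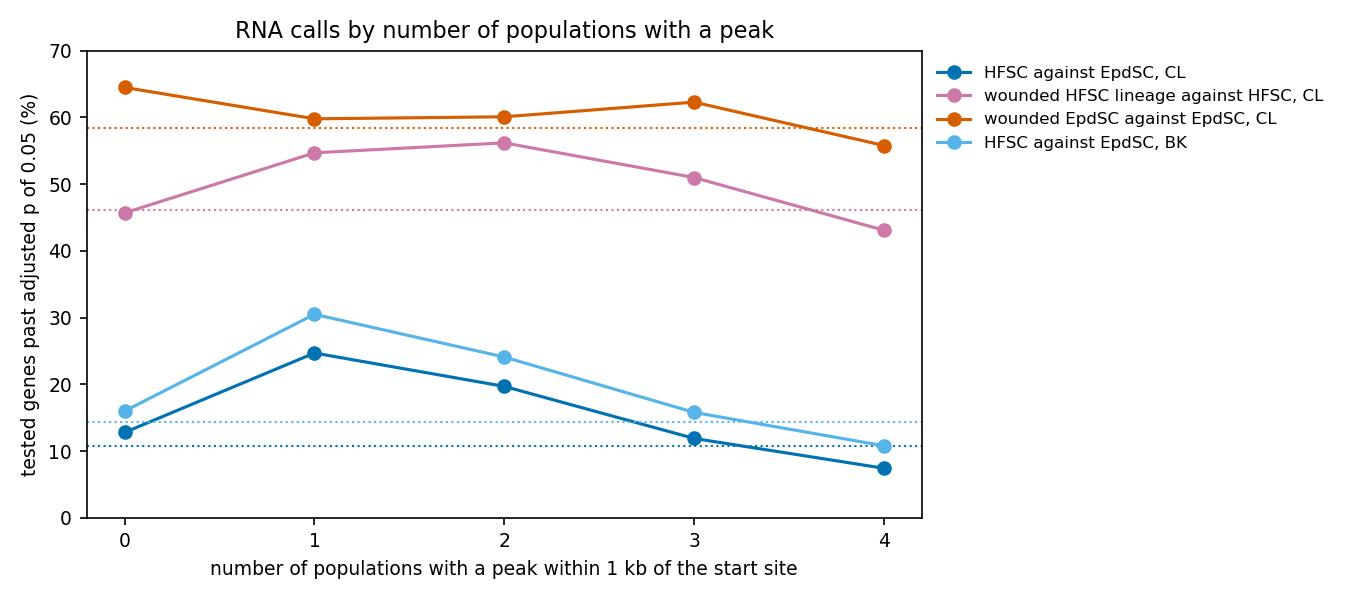
Share of tested genes past an adjusted p of 0.05 (%) in 4 RNA comparisons (solid lines). Genes are grouped by number of populations with a peak, for regions with their summit within 1 kb of the start site. Dotted lines give the share over all genes tested. For HFSC against EpdSC in CL the share was 7.43% with 4 populations and 24.7% with 1.

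After wounding, large parts of the shared-region genes changed. In the wounded HFSC lineage against HFSC, 1672 genes with a shared start-site region were higher and 1301 lower, of 6902 (24.2% and 18.8%). Over all genes tested 46.1% passed, 21.4% higher and 24.7% lower. In wounded EpdSC against EpdSC, 1770 were higher and 2079 lower (25.6% and 30.1%), where 58.4% of all genes passed, 30.2% higher and 28.2% lower. The shared-region shares of 43.1% and 55.8% were close to these backgrounds. Single libraries moved these counts by over 1.5 times. In the HFSC lineage, 1084 were higher and 866 lower without HFSC replicate A, 1016 and 705 without wounded replicate A, and 702 lower without wounded replicate B. In EpdSC, 1153 were higher and 1331 lower without unwounded replicate A, and 1107 and 1365 without unwounded replicate B. Summed immune markers, 9 genes, stood at 3650 and 2950 CPM in the wounded EpdSC libraries, with none of the 9 at 0, and at 32.6 and 20.8 in unwounded EpdSC. In the wounded HFSC lineage they stood at 35.1 and 29.6, and in HFSC at 40.2 and 108. The 8 fibroblast markers summed to 3540 and 2200 in HFSC and to 350 and 402 in its wounded lineage, and to 272 and 561 in EpdSC and 732 and 870 in wounded EpdSC. Postn made up most of the HFSC and EpdSC sums, and in wounded EpdSC 7 of the 8 markers were higher and 1 lower than in EpdSC, with a median log2 fold change of 6.61. Their part in the wound results was not tested. In bulk RNA, a change in the mix of cells and a change in RNA per cell cannot be told apart.

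Gjb2 joined the wound-tilted chromatin to RNA. It had 1490 and 1800 CPM in the wounded HFSC lineage against 5.14 and 5.82 in HFSC (log2 fold change 8.23, SE 0.40, adjusted p = 2.26e-05). In EpdSC it had 920 and 1620 after wounding against 1.26 and 0.875 before (log2 fold change 10.19, SE 0.45, adjusted p = 1.41e-05). Its pileup was 4.04 FPM in Wound and below 0.9 in the other lists. Stfa3 reached 7290 and 6990 against 16.2 and 20 in the HFSC lineage, and 7850 and 6130 against 12.3 and 10.6 in EpdSC, while its pileup was 5.03 in Wound, 3.62 in HFSC and 2.51 in EpdSC. Lrat, an enzyme of retinol storage, and Acta2, smooth muscle actin, were also among the 10 largest rises of both comparisons, as were Gm12603 and Cryba2. Acta2 had 393 and 367 against 0.762 and 0.301 in the HFSC lineage. The other large rises were Aox4, Htr1b, Atp13a4 and Bdkrb2 in the HFSC lineage, and Hist1h2bb, Scgb2b27, Fam20a and Hist2h2bb in EpdSC.

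The largest falls held immediate early genes. Atf3, a stress-induced factor of the AP-1 group, had 2580 and 5200 CPM in HFSC and 6.08 and 4.07 in the wounded lineage (log2 fold change -9.58, SE 0.51, adjusted p = 2.74e-05). In EpdSC it fell from 7610 and 7460 to 30.2 and 23.9 (log2 fold change -8.12, SE 0.48, adjusted p = 2.85e-05). Its pileup did not follow: it was 6.46 FPM in Wound, 3.02 in HFSC and 2.29 in EpdSC. All 5 AP-1 genes with a shared region were lower in both wound comparisons, with medians of -4.56 and -3.66 against -0.10 and -0.04 over all genes tested. Of the 5 AP-1 genes without one, 4 were lower in each comparison. Nr4a3 and Klf2 fell in the HFSC lineage, with Adra2a, Gm16897, Ch25h, Tox2, Fbln7, Sema3e and Ccno. In EpdSC, Egr2, an early growth response factor, fell from 284 and 315 to 1.65 and 2.54, beside Cyp46a1, Mill2, Tmem56, Ccdc3, Plcxd2, Ccdc141 and Pard3b. Syt1 fell from 9.57 and 12 CPM to 0.0 and 0.0424 (adjusted p = 6.75e-05), and its pileup was 6.3 in EpdSC and 1.44 in Wound.

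All 9 HFSC identity genes with a shared region were lower in the wounded HFSC lineage, with a median of -3.19, where 24.7% of all genes tested were lower. The 9 HFSC identity genes without a shared region were also all lower, with a median of -4.95. Of the cell cycle genes with a shared region, 9 of 13 were higher in the wounded HFSC lineage and 10 of 13 in wounded EpdSC, with medians of 1.27 and 1.76. Of the 7 without a shared region, 2 were higher in the HFSC lineage and 4 in EpdSC. Of the ribosomal protein genes with one, 28 of 58 were higher and 1 lower in the HFSC lineage, and 36 higher and 4 lower in EpdSC. Over all genes tested, 21.4% were higher and 24.7% lower in the HFSC lineage, and 30.2% and 28.2% in EpdSC. Of the ribosomal protein genes without a shared region, 4 of 21 tested were higher in the HFSC lineage and 13 of 21 in EpdSC. Chromatin looping genes were lower in 6 of 7 tested cases in wounded EpdSC and in 1 of 7 in the HFSC lineage.

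Over all start-site regions, the RNA response and the pileup ratio had Spearman correlations of 0.11 for Wound over HFSC and 0.19 for Wound over EpdSC. The same Wound list, of Sca1-positive cells from CD1/B6 mice, served both comparisons. The wounded RNA groups were sorted by YFP from B6 mice. At equal medians, the Wound over EpdSC pileup ratio had a median of 0.23 on the log2 scale for the 1770 genes higher in wounded EpdSC, -0.04 for genes not called and -0.11 for the 2079 lower genes. For Wound over HFSC the medians were 0.07, -0.00 and -0.07. The interquartile range of each class was wider than these shifts, from -0.33 to 0.67 in the first.

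Chromosomes differed in the level of the shared regions in Tumor. This pattern was chosen after its values were seen and is given as a description. For each region the Tumor pileup was set against the mean of the other populations on the log2 scale, and centred on all shared regions. The chromosome medians ran from -0.28 on chromosome 4 to 0.28 on chromosome 19, with -0.25 on 14, -0.23 on 13, -0.22 on 17 and 0.22 on 6. Over the 19 autosomes the medians had an SD of 0.18 in Tumor, 0.12 in EpdSC and 0.09 in both HFSC and Wound.

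RNA of the tumours was examined over the 7746 protein-coding genes with a shared region at a start site or gene end and at least 10 reads in every DS library, relative to the mean of the Tbr HFSC and Tbr EpdSC libraries. In the 4 HRas-bearing tumour libraries the medians of chromosome 4 were -0.27, -0.23, -0.34 and -0.34, those of chromosome 13 -0.36, -0.28, -0.38 and -0.34, and those of chromosome 19 0.31, 0.29, 0.33 and 0.40. In the 2 TbrKO tumour libraries chromosome 4 stood at -0.01 and -0.03 and chromosome 19 at 0.02 and 0.04. Across autosomes, the Tumor pileup medians and the RNA medians had Pearson correlations of 0.73, 0.73, 0.74 and 0.78 in the HRas-bearing libraries and 0.33 and 0.26 in the TbrKO libraries (n = 19 chromosomes). The tumour libraries share the same skin reference, so these values are no independent support of each other. Several chromosomes did not follow this order. Chromosomes 10, 12 and 18 had RNA medians of 0.24 to 0.31, 0.10 to 0.18 and 0.10 to 0.15 in the HRas-bearing libraries, where the pileup medians were -0.08, -0.13 and -0.08. Chromosomes 5 and 7 had RNA medians of -0.05 to 0.02 and 0.01 to 0.07, where the pileup medians were 0.19 and 0.17. Copy number was not measured.

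On the X chromosome the median was 0.37 in EpdSC and -0.41 in Wound, with -0.08 in HFSC and 0.07 in Tumor. No autosome exceeded 0.25 in EpdSC or fell below -0.10 in Wound. The X chromosome held 397 shared regions, 18% of its open regions, against 14% to 18.2% on the autosomes.

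**Figure D5:**
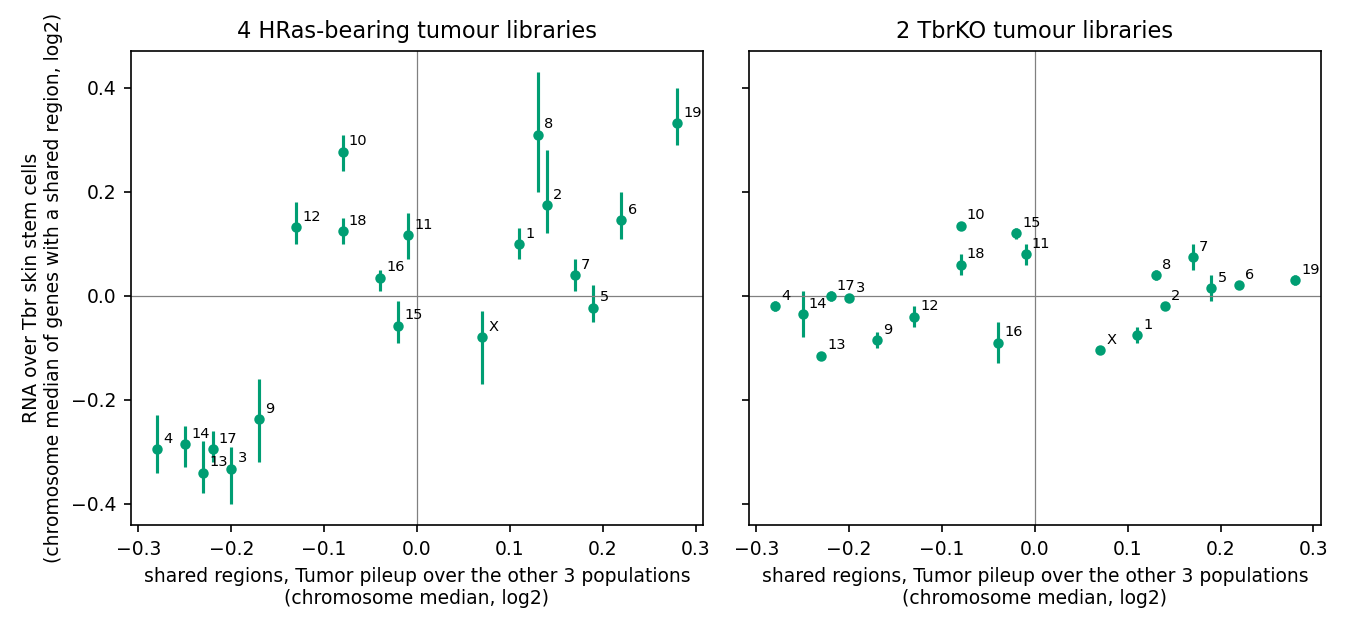
Chromosome medians of the Tumor pileup over the other 3 populations in shared regions (x axis, log2) and of tumour RNA over Tbr skin stem cells for genes with a shared region (y axis, log2; points, mean of libraries; bars, lowest to highest library), each number a chromosome. In HRas-bearing tumours chromosome 19 was high and chromosomes 4, 13 and 14 were low on both axes, and TbrKO tumours stayed within 0.14 of 0.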

How the data were processed

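ATAC-seq peaks of 4 populations, 1 pooled library each, and RNA counts of 21 libraries were used, and the members and gene lists were chosen with earlier results of these data known. Per the file headers, the authors called peaks with MACS2 2.1.1.20160309 from read pairs, without a control, at a q-value of 0.05, with its duplicate filter off. The name of the alignment in the headers describes it as pooled, deduplicated and filtered. For every peak the authors deposited the signal at the summit (pileup of fragments), the fold enrichment over the local background, which is a ratio, and the p-value and q-value on a -log10 scale. Bowtie, Picard and STAR are named in the submitters' processing notes, with mm10. No source used here says whether reads were shifted for the transposase.

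The RNA file deposited by the authors holds whole-number read counts per gene symbol, 24061 symbols by 21 libraries, and 14 symbols had been turned into dates. Column names gave the sample of each library. The sources used here name no gene counter, strand setting or annotation, so reads of overlapping or near-identical genes may be split or lost. Separate animals are not stated for the replicates of a group, and p-values then reflect only the spread of these libraries, which may be technical. The symbols matched the RefSeq gene table (GRCm38.p6, the build mm10) in 90.8% of cases. Start sites came from RefSeq promoter sequences for 79.9% of protein-coding genes, and the other genes were examined at both ends.

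Peaks were merged when they overlapped by 1 bp or more. Pileups were divided by the fragments in each header and multiplied by 1000000. The test of counts was that of edgeR 4.0.16 under R 4.3.3 (TMM, filterByExpr, quasi-likelihood F test, Benjamini-Hochberg threshold of 0.05), fitting the 8 CL and the 5 BK libraries separately with 1 mean per group. Fold changes of genes near 0 depend on edgeR's prior count. On simulated counts with 200 genes changed 4-fold, the test recovered 77% of changed genes for HFSC against EpdSC in CL (14608 genes). It recovered 76.5% and 81% for wounded HFSC lineage and wounded EpdSC (14650 and 14645), and 69.5% for BK (14416). Of its calls 8.88%, 6.13%, 4.71% and 8.55% were false, in that order. These shares hold for that setting only. In the real counts 46.1% and 58.4% of genes passed in the wounded HFSC lineage and wounded EpdSC comparisons. The share recovered or false with so many changed genes was not tested. Regions and genes were named by rule: the 10 with the highest lowest pileup, the 5 most tilted to each population, the 10 most even, the 5 widest, the 10 genes with most members, listed genes, and the 10 largest RNA changes in each direction among genes that passed and whose groups did not overlap. Replicates were 2 per group, so no group was checked for outlying libraries. Alternatives were stricter q-values, overlap rules, equal list lengths, other scalings and windows, DESeq2 1.42.0, RLE size factors, no filter, a replicate block and leaving out each library. Motifs were searched in promoter windows in place of the windows around summits that had been planned, and sequence of regions away from promoters was not analysed here. Without transcript lengths, detection is given in place of RNA levels per length. One region that the naming rule selects is not reported here.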

Additional observations from a re-analysis of the deposited data

Results flagged for a closer look

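Peaks outside the chromosomes used were examined for signal in data that the comparisons left out. All 4 ATAC populations were labelled female, yet the lists held peaks on chromosome Y: 11 in HFSC, 2 in EpdSC, 6 in Wound and 17 in Tumor. No control sample gives a background for them, and their source was not tested.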

How the results depend on the processing

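The number of shared regions was 8204 with a -log10 q of at least 10 and 9002 with the same number of peaks per file. The share at start sites was 47.9% and 52.8% at a -log10 q of at least 5 and 10, 45.9% with the stricter overlap with an EpdSC peak and 46.7% with 4 summits within 250 bp, 37.3% with a 250 bp window and 47.4% with 2 kb. At a -log10 q of at least 5, at least 10 and with close summits, the median pileup was as follows: HFSC had 3.02, 3.69 and 2.91 FPM, EpdSC had 2.01, 2.58 and 1.93, Wound had 4.04, 4.49 and 3.95, and Tumor had 1.86, 2.23 and 1.83. The median width was then 1150, 1180 and 1060 bp. Wound was highest in 16.9% of regions at equal medians and 28.8% by fold enrichment, both chosen after seeing the data. Stricter thresholds kept the stronger regions by construction. How fragment numbers bear on weak regions was not tested.

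With the replicate block the counts of higher and lower genes with a shared region were 267 and 213 for HFSC against EpdSC in CL, 1574 and 1234 for the wounded HFSC lineage, 1697 and 2121 for wounded EpdSC, and 354 and 450 in BK. The labels link libraries of the same letter or number by name only. Between the wounded HFSC lineage and wounded EpdSC, deviations of libraries of the same letter correlated at 0.78. The other CL pairs of groups had -0.48 to 0.16, and BK had -0.33. What the wounded libraries of a letter had in common was not tested. Crossing the 2 BK numbers in the replicate block, chosen after seeing the data, gave 586 and 738. Leaving out 1 library gave 90 to 189 and 48 to 156 in CL, 1016 to 1201 and 702 to 969 in the wounded HFSC lineage, 1107 to 1838 and 1331 to 2795 in wounded EpdSC, and 180 to 1315 and 195 to 1850 in BK. Motif shares fell in windows of 100 bases, which are shorter by construction. The lone library left in a group was assumed to vary like the other groups. RLE size factors, DESeq2, no filter and other windows left every RNA count within 1.5 times its value, and the cause of the changes above was not tested.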
